A study of Mus musculus with 18 samples.

Results

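The ribosome occupancy of Hes1 was examined in the neural tube (NT), the forelimb buds (FL) and the mesoderm of E11.5 mouse embryos. Hes1 was 1 gene of 11231 in the table of the NT and the FL and 1 of 12064 in the mesoderm table, and it was found by its UCSC identifier, uc007ywl.1. It was chosen by the measured values of the FL against the NT, so its difference between these tissues is given as a description, with no test. Its translational efficiency (TE) in the mesoderm did not enter that choice and was tested, though the mesoderm sample takes in limb mesoderm. Ribo-Seq reads, which are ribosome-protected fragments (RPFs), and polyA RNA-Seq reads were counted in 3 replicates of each tissue, 18 libraries in all. The NT and the FL were microdissected from FVB embryos, which carried no transgene, and were taken from the same embryos. Some neural tubes of the study were frozen and the others were dissociated with papain, and the sources do not say which libraries these became. The mesoderm was the GFP+ sort of embryos that carried 1 R26-mTmG flox allele and the Tg(T-cre)1LWD/J transgene, in which T-Cre switches a membrane Tomato reporter to membrane GFP in the descendants of the primitive streak. Cycloheximide, which halts ribosomes on the mRNA, was in the dissection medium of the NT and the FL and in the trypsin of the mesoderm. The methods do not name it for the papain step. How many embryos entered a library is not given in the sources used here, so the spread between replicates may be partly technical.

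HES1 is a basic helix-loop-helix (bHLH) repressor of transcription and a classical target of Notch signalling. A Notch ligand on one cell leads to the cleavage of the receptor on its neighbour, and the freed intracellular domain joins RBPJ and a Mastermind protein on the Hes1 promoter. HES1 then recruits co-repressors of the Groucho/TLE family through a WRPW motif at its carboxyl end, holds down proneural bHLH genes and represses its own gene. In the neural tube it is known for keeping progenitors from early differentiation. In the presomitic mesoderm it is an oscillating gene, and its mRNA and protein are both short-lived.

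In the GRCm38 build the Hes1 gene lies on the plus strand of chromosome 16 from 30064384 to 30067796, and no other annotated gene overlaps it. Its 1 annotated coding transcript runs from 30065340 to 30067796 in 4 exons, each of which holds coding sequence. The 5′-UTR has 251 nt with 1 upstream AUG, and the 3′-UTR has 368 nt. The coding sequence (CDS) from 30065591 to 30067428 holds 282 codons before the stop. The first 15 and the last 5 codons were not counted by the authors, which leaves 262 codons behind every value of Hes1. The ends of the CDS are shown because they bound this counted stretch. In the first sequence, at chr16:30065591-30065614, the capitals mark the start codon. In the second, at chr16:30067408-30067428, they mark codons 277 to 280, which spell the WRPW motif.
Hes1 first codons: ATGccagctgatataatggagaaa
Hes1 WRPW codons to stop: TGGAGACCGTGGcggaactga
The uncounted end therefore takes in the last 3 residues of the motif that binds Groucho/TLE proteins.

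The libraries of the NT and FL table held between 12967893 and 33061460 reads in genes, and those of the mesoderm table between 11000015 and 50136443. Several libraries stood apart from their group. FL Ribo-Seq replicates 1 and 2 correlated with each other at a Pearson r of 0.976 on the log2 scale across genes but with replicate 3 at 0.886 and 0.896. FL replicate 3 correlated with the FL RNA-Seq libraries at 0.901 to 0.908, against 0.728 to 0.740 for the other 2. NT Ribo-Seq replicate 3 correlated with the other NT Ribo-Seq libraries at 0.933 and 0.934, against 0.989 between those. NT RNA-Seq replicate 1 had 659 normalized reads of Epcam, an epithelial marker, against 96.0 and 107, and 2675 of Dcx, a marker of young neurons, against 7953 and 6797. The tissue labels were met by their markers. The summed mRNA of the 6 neural markers of 11 that had a symbol lay between 56011 and 95320 normalized reads in the NT and between 5378 and 6325 in the FL. The 5 limb markers of 9 lay between 2161 and 2363 in the NT and between 28364 and 34244 in the FL. In the mesoderm the same neural sum was 8881 to 11780 and the limb sum 16990 to 18867, and no marker with a symbol was at 0 in any library.

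Hes1 mRNA was well covered in all 3 tissues. In the NT, Hes1 mRNA was at 2046, 1337 and 1282 normalized reads in replicates 1 to 3, with a mean of 1555 ± 426 (SD, n = 3). In the FL it was at 1324, 1142 and 1319, with a mean of 1262 ± 104 (SD, n = 3). The 2 tissues overlapped, and the single high value was NT replicate 1. It had the most Epcam and the least Dcx of the 3 NT RNA-Seq libraries. In the mesoderm, whose table was normalized separately, Hes1 mRNA was at 1335, 1778 and 1801, with a mean of 1638 ± 262 (SD, n = 3). Each library counted its own mRNA level closely, since Hes1 had 1431 to 3721 reads per RNA-Seq library. As reads per 1000000 reads in genes, Hes1 mRNA ranged from 57.8 to 94.4 in the NT, from 53.0 to 61.9 in the FL and from 59.1 to 81.2 in the mesoderm, over tables that hold different sets of genes. In a bulk tissue, fewer Hes1-expressing cells and less Hes1 mRNA per cell cannot be told apart.

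The ribosome footprints on Hes1 varied far more between tissues than its mRNA. In the NT, Hes1 RPFs were at 966, 966 and 1532 normalized reads, with a mean of 1155 ± 327 (SD, n = 3). In the FL they were at 5763, 7170 and 2898, with a mean of 5277 ± 2177 (SD, n = 3). The lowest FL library, replicate 3, still lay above the highest NT library, also replicate 3, so the groups did not overlap. The 95% Poisson intervals, which cover counting error only, ran from 2770 to 3030 for that FL library and from 1441 to 1627 for that NT library. Across all genes, 21.5% had RPFs that were higher in the FL with no overlap and 21.1% had RPFs that were lower, so a separation of this kind was common in these libraries. In the mesoderm Hes1 RPFs were at 1834, 4736 and 3390, with a mean of 3320 ± 1452 (SD, n = 3). The highest mesoderm library was 2.58 times the lowest, and the highest FL library was 2.47 times its lowest.

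**Figure D1:**
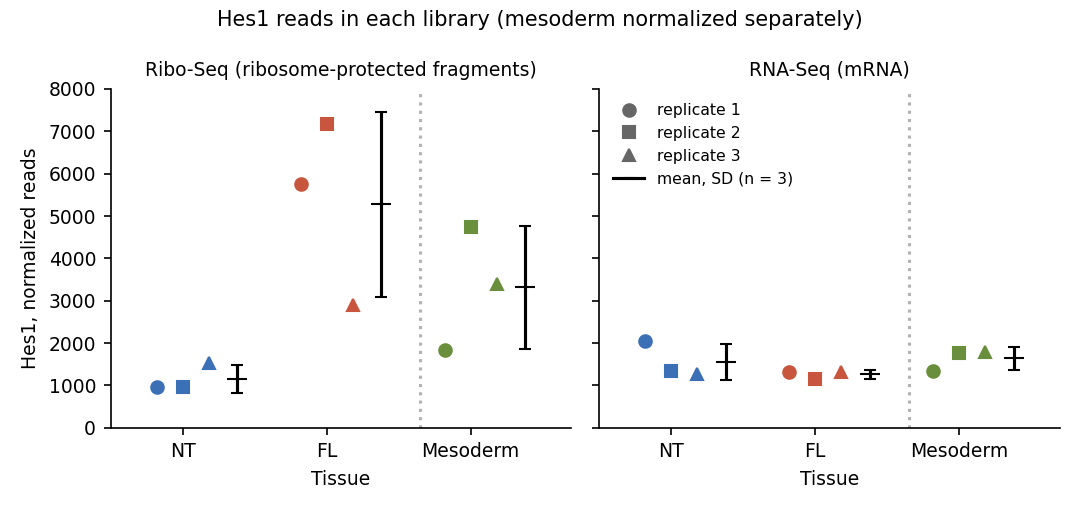
Normalized reads of Hes1 in each Ribo-Seq library (left) and each RNA-Seq library (right), by tissue, with symbols for the replicate number and black bars for the mean and SD of 3 replicates. The FL footprints span 2898 to 7170 and lie above the NT footprints, while the mRNA of the NT and the FL overlaps; the mesoderm, right of the dotted line, was normalized separately.

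TE was taken as the log2 ratio of Hes1 RPFs to Hes1 mRNA. In the NT it was -1.08, -0.47 and 0.26 in replicates 1 to 3, with a mean of -0.43 ± 0.67 (SD, n = 3). In the FL it was 2.12, 2.65 and 1.13, with a mean of 1.97 ± 0.77 (SD, n = 3). In the mesoderm it was 0.46, 1.41 and 0.91, with a mean of 0.93 ± 0.48 (SD, n = 3). The mesoderm, scaled in a table of its own, lay between the other tissues in its mean, and its highest replicate lay above the lowest FL replicate. The cells of a sample were divided between Ribo-Seq and RNA-Seq, yet replicate numbers did not tie the libraries of the NT and the FL together. For that reason TE was also formed from all 9 combinations of Ribo-Seq and RNA-Seq libraries. Hes1 TE then ran from -1.08 to 0.26 in the NT, from 1.13 to 2.65 in the FL and from 0.03 to 1.83 in the mesoderm, so no combination made the NT and the FL overlap. By replicate number, 9.16% of all genes had a TE that was higher in the FL with no overlap and 7.52% had one that was lower. The mRNA alone was separate and higher in the FL for 23.3% of genes and separate and lower for 24.1%, which did not include Hes1.

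Set among all genes of its own replicate, Hes1 lay in the lower or middle part of the TE distribution in the NT and at the upper end in the FL. In the NT, 12.5%, 27.1% and 57.3% of genes had a lower TE than Hes1 in replicates 1 to 3. In the FL, 95.3%, 99.3% and 95.3% had a lower TE. In the mesoderm, 66.9%, 90.6% and 83.5% did. The width of the distribution differed between replicates, with an SD over genes of 1.59 and 1.54 in FL replicates 1 and 2 and of 0.86 in FL replicate 3. Hes1 in FL replicate 3 therefore held nearly the same place among genes as in FL replicate 1 at a smaller log2 TE.

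**Figure D2:**
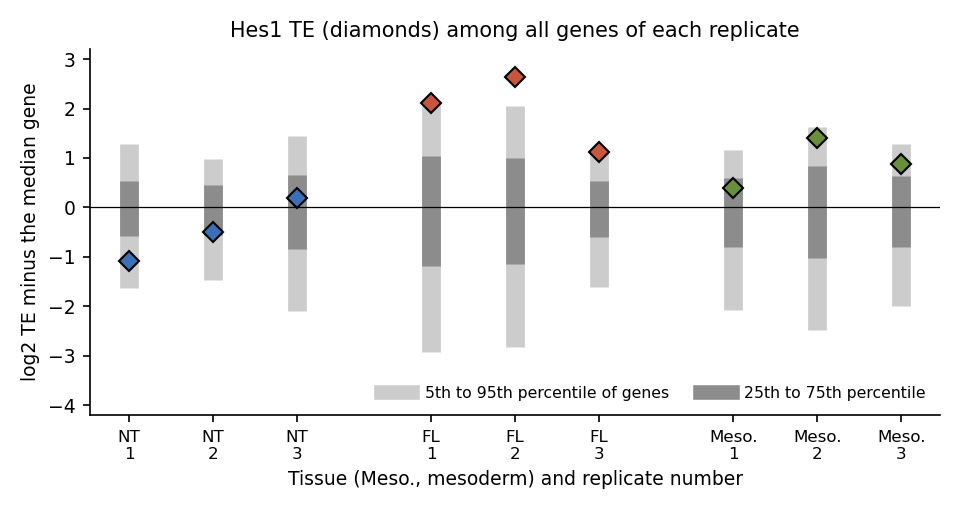
log2 TE of Hes1 minus the median gene (diamonds) in each replicate of the NT, the FL and the mesoderm, over bars for the 5th to 95th and the 25th to 75th percentile of all genes in that replicate. Hes1 lies from -1.08 to 0.19 in the NT and from 1.12 to 2.63 in the FL.

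Between the FL and the NT, Hes1 differed more in its footprints than in its mRNA. On the log2(normalized reads + 1) scale, Hes1 RPFs differed by 2.13 ± 0.45 (SE) between the FL and the NT, or 4.37-fold. Hes1 mRNA differed by -0.27 ± 0.23 (SE), which is 1.21-fold higher in the NT and about the size of its error. Hes1 TE, formed by replicate number, differed by 2.40 ± 0.59 (SE), or 5.28-fold, against a median of 0.01 over all genes. This SE comes from the spread of those ratios and not from the limma fit used for the list genes. Only 15 of 11231 genes had a larger TE difference toward the FL, whereas 351 had a larger RPF difference toward the FL. In mRNA, where Hes1 was lower in the FL, 7799 genes had a signed difference above its own. These values chose the gene and are not evidence for it. Markers of other cell types also differed in footprints between these libraries. The 2 blood markers of 6 with a symbol, Hba-a2 and Hba-x, summed to 49771 to 67016 normalized reads in the NT Ribo-Seq and to 86106 to 167626 in the FL Ribo-Seq, with FL replicate 3 the lowest, as for Hes1. Their mRNA overlapped, at 11036 to 19713 in the NT and 13319 to 23800 in the FL. The 3 macrophage markers of 4 summed to 1211 to 1985 in the NT Ribo-Seq and to 1662 to 3103 in the FL Ribo-Seq, and to 710 to 846 and 583 to 612 in the mRNA. Among these Tyrobp differed by 1.49 in RPFs, -1.63 in mRNA and 3.12 in TE, on FL mRNA of only 24.7 to 41.5 normalized reads. Csf1r differed by 0.71, -0.30 and 1.01 and Cx3cr1 by 0.54, -0.12 and 0.66, and the RPFs of both overlapped between the tissues. Epcam, the 1 epithelial marker of 6 with a symbol, had 60.9 to 187 RPFs in the NT and 1215 to 1899 in the FL. None of these markers was at 0 in any library, and the part of these cell types in the Hes1 difference was not tested. The limma interaction fit called 14 genes (0.125%) higher in TE in the FL and 31 (0.276%) higher in the NT, with calls made at 2-fold or more and an adjusted p under 0.2. Without FL Ribo-Seq replicates 1 and 2, the TE difference of Hes1 was 1.63 and that of its RPFs was 1.36. Without replicate 3 of every group, they were 3.16 and 2.73. Leaving out NT RNA-Seq replicate 1 brought the mRNA difference to -0.06 and the TE difference to 2.18.

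**Figure D3:**
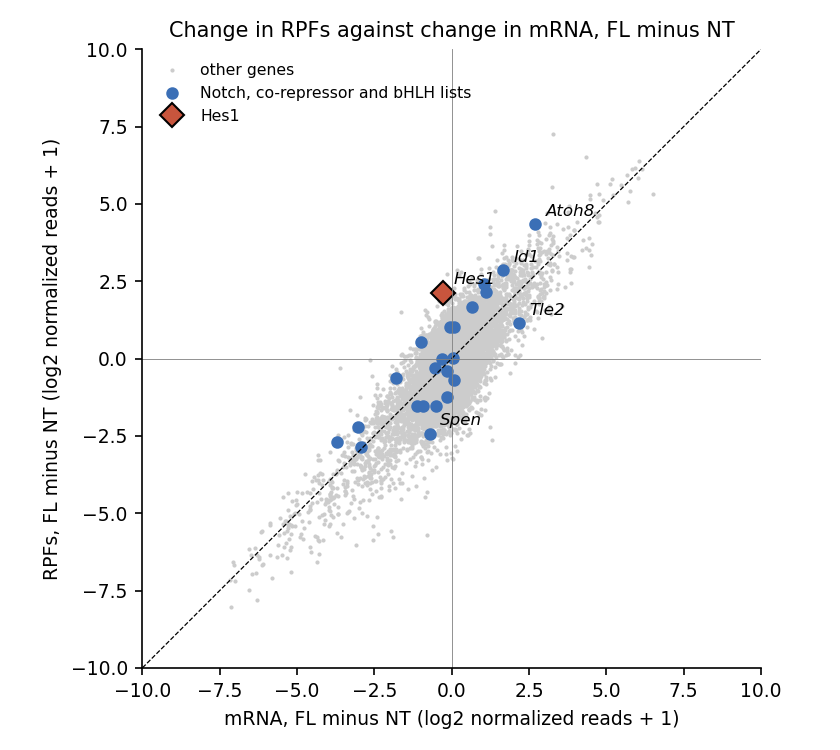
Change in RPFs (vertical) against change in mRNA (horizontal) from the NT to the FL for all 11231 genes (grey), for the genes of the Notch, co-repressor and bHLH lists (blue) and for Hes1 (red diamond), each on the log2(normalized reads + 1) scale; the dashed line marks equal change. Hes1 lies at -0.27 in mRNA and 2.13 in RPFs, above the dashed line, which is a higher TE in the FL.

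In the mesoderm, whose values did not enter the choice of the gene, Hes1 TE was above that of the median gene. The sort takes in limb mesoderm, so a test in it is not independent of a choice made on FL values. The limma fit with replicate number as a block gave a difference of 0.89 ± 0.20 (SE) on the log2 scale, or 1.86-fold, at an adjusted p of 0.0028 by limma over 12064 genes. Hes1 TE was above the median in 3 of 3 replicates, by 0.40, 1.41 and 0.88. It fell short of the 3-fold difference used to call a gene high in TE, which 1.17% of genes reached. Being above the median at an adjusted p under 0.05 was common and held for 32.0% of genes, with 34.2% below it. In all, 2029 genes had a higher mesoderm TE than Hes1. Without the block the same difference had an adjusted p of 0.066 by limma, which misses the 0.05 threshold. Leaving out each replicate in turn gave values from 0.64 to 1.14, with adjusted p from 3.55e-05 to 0.021 by limma. Each of these fits rested on 2 replicates and the block, so a lower adjusted p in them is not stronger evidence. Mesoderm replicate 2, which had the highest Hes1 TE, also had the most mRNA of Hba-x, an embryonic globin, at 12367 normalized reads against 2250 and 4719, and the part of this in the result was not tested.

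Hes1 has a short CDS of 846 nt, and TE was related to coding length to a different degree in each replicate. Among the genes with a symbol and an annotated CDS, the Spearman rho of TE with coding length was 0.01, -0.32 and -0.53 in NT replicates 1 to 3. It was -0.74, -0.74 and -0.47 in FL replicates 1 to 3 and -0.49, -0.62 and -0.52 in the mesoderm. These coefficients are across 3090 genes of the NT and FL table and 3217 of the mesoderm table, 27.5% and 26.7% of each, most of them genes that the study had called, so they do not stand for all genes. The replicates with the steepest decline of TE with length, FL replicates 2 and 1 and mesoderm replicate 2, were also those with the highest Hes1 TE. NT replicate 1, with no such decline, had the lowest. FL replicate 3 and NT replicate 3 had similar coefficients, and Hes1 TE minus the median gene was 1.12 in the former and 0.19 in the latter. Of 3089 other genes with a symbol and a coding length in the NT and FL table, 292 had a CDS within 20% of that of Hes1. Their median TE difference between the FL and the NT was 0.98, and 2 of them were at or above Hes1. It was 0.13 for the 91 of these that were not paired with a symbol through the study's calls of the FL against the NT, and 1.07 for the 201 that were. The part of coding length in the Hes1 difference was not tested.

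**Figure D4:**
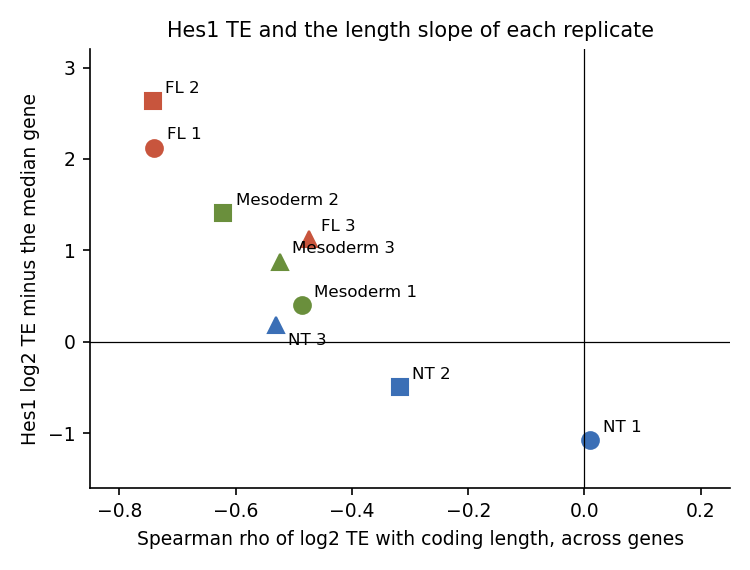
log2 TE of Hes1 minus the median gene (vertical) against the Spearman rho of TE with coding length across genes (horizontal), with 1 point for each replicate of the NT, the FL and the mesoderm. FL replicates 1 and 2 lie at a rho of -0.74 with the highest Hes1 TE, and NT replicate 1 at 0.01 with the lowest; points of 1 tissue share a table and a normalization.

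The rest of the pathway was read from lists of 99 other genes, of which 23 could be paired with a symbol and stood in the NT and FL table. Symbols came from the study's tables of called genes, so the 23 are a selected set, and 12 of them were paired through calls of the FL against the NT themselves. None of the 23 passed the limma interaction test, against 0.125% of all genes higher in the FL and 0.276% higher in the NT. Their adjusted p ran from 0.29 to 0.97 by limma, and 6 were higher in the FL and 3 in the NT at an unadjusted p under 0.05, where 7.60% and 9.33% of all genes were. edgeR called 0 of the 23 on the recovered reads, where it called 0.160% of all genes higher in the FL and 0.187% higher in the NT. DESeq2 called 5 of the 23 higher in the FL, namely Aes, Atoh8, Cdkn1a, Gadd45g and Id1, where it called 5.07% of all genes so, and 0 higher in the NT, where it called 2.54%. All 5 had been paired through the calls of this same contrast. Without replicate 3, 10 of the 23 were called higher in the FL and 5 in the NT, where 20.7% and 22.3% of all genes were. The median TE difference of the 23 was 0.27, against 0.01 over all genes, and that of the 11 paired by other tables was -0.22.

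Hes6, a HES family member known to oppose HES1 and to favour neuronal differentiation, was the other family gene with a symbol. Hes6 mRNA was at 5113, 3476 and 5373 normalized reads in the NT and at 1490, 1338 and 1142 in the FL. All NT libraries were above all FL libraries, unlike those of Hes1. Hes6 RPFs were at 3256, 3392 and 7294 in the NT and at 3625, 4060 and 1477 in the FL, which overlapped. Its TE difference was 1.17 ± 0.54 (SE of the limma fit, as for the list genes below) toward the FL, at an adjusted p of 0.29 by limma. Per counted kb of CDS, the mean mRNA level was 7605 normalized reads for Hes6 and 1979 for Hes1 in the NT, and 2162 and 1606 in the FL. The mean RPF level per kb was 7594 for Hes6 and 1469 for Hes1 in the NT, and 4990 and 6714 in the FL, so the order of the 2 genes turned in the footprints and not in the mRNA, with single libraries that overlap.

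Upstream of Hes1, no Notch receptor could be paired with a symbol. Of the ligands, Jag2, which activates Notch, had a TE difference of -0.22 ± 0.47 (SE) and Dlk2, a non-canonical ligand, of 1.54 ± 0.72 (SE). Psenen, a subunit of the γ-secretase that frees the intracellular domain, had a TE difference of 1.08 ± 0.48 (SE) at nearly the same mRNA in both tissues, a difference of -0.06. Mfng, a glycosyltransferase that modifies the receptors, differed by -2.94 in mRNA and by -2.87 in RPFs, lower in the FL, with a TE difference of 0.07 ± 0.56 (SE). Among the nuclear partners, Maml3, Ep300 and Kat2b, a Mastermind gene and 2 acetyltransferases of the Notch complex, had TE differences of -0.41, -1.11 and -0.61. None of these passed the test.

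The co-repressors had TE differences of both signs. Tle2, a Groucho family member, had more mRNA in the FL by 2.17 and a TE difference of -1.03 ± 0.46 (SE). Aes, a short relative of the TLE genes, had a TE difference of 0.96 ± 0.40 (SE). Spen, a scaffold that represses Notch targets with RBPJ, was the lowest of all the list genes at -1.72 ± 0.60 (SE), with Ncor1, a nuclear receptor co-repressor, at -0.77. Ctbp1 was at 0.22 ± 0.29 (SE). Nrarp, a Notch target that feeds back on the pathway, differed by -3.02 in mRNA, lower in the FL with no overlap, whereas Hes1 mRNA overlapped; its TE difference was 0.79 ± 0.40 (SE). Dtx3, Mib2 and Neurl1b, ubiquitin ligases of the pathway, were at 0.27 ± 0.57, -0.02 ± 0.32 and -1.05 ± 0.93 (SE). Neurl1b had few footprints, at 6.41 to 65.7 normalized reads in the FL. No gene of this paragraph passed the test, and the median over the 5 co-repressors was -0.77.

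The bHLH partners and targets had TE differences toward the FL, and all 6 had been paired through calls of the same contrast. Id1 and Id3, inhibitors that bind E proteins, had RPF differences of 2.86 and 2.16 and mRNA differences of 1.67 and 1.09. Id1 RPFs were at 1494, 1360 and 2308 in the NT and at 15405, 17501 and 6736 in the FL, where replicate 3 was the lowest, as for Hes1. Atoh8, a bHLH factor, was separate in mRNA as well, at 109, 83.1 and 87.9 normalized reads in the NT and at 658, 601 and 570 in the FL. Cdkn1a, a cell cycle inhibitor, and Tcf3, an E protein, had mRNA differences of 1.03 and 0.65 toward the FL. Gadd45g, a growth arrest gene, differed by -3.72 in mRNA and by -2.69 in RPFs, lower in the FL. The TE differences of these 6 genes ran from 1.02 for Tcf3 to 1.63 for Atoh8, below the 2.40 of Hes1. For 5 of the 6 the mRNA was higher in the FL with no overlap, as for 23.3% of all genes, while the mRNA of Hes1 overlapped. Since calls of this contrast chose the 6, nothing is read from that count.

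**Figure D5:**
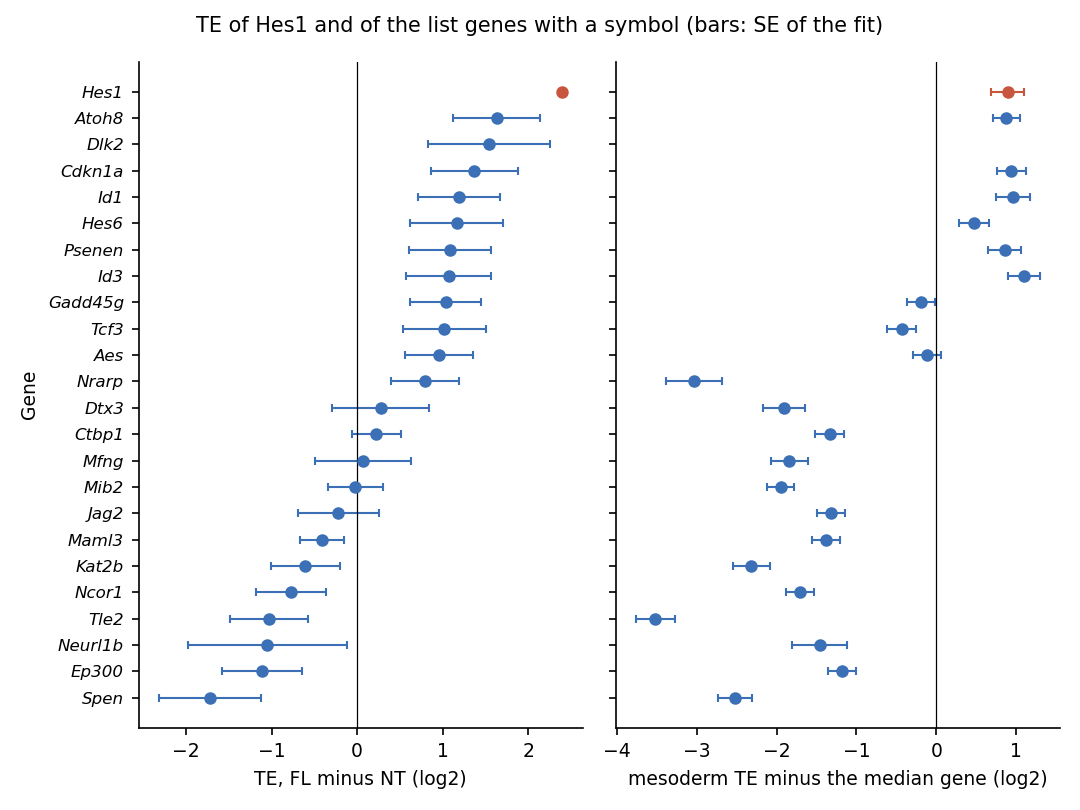
TE difference between the FL and the NT (left) and TE in the mesoderm relative to the median gene (right) for Hes1 (red) and the 23 list genes (blue), in log2 units, with bars for the SE of the limma fit; Hes1 has no bar on the left because it was chosen on that contrast, and Dlk2 was not in the mesoderm table. Hes1 lies at 2.40 on the left and 0.89 on the right, and Spen at -1.72 and -2.52.

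In the mesoderm 22 of the list genes were measured, and 8 were called low in TE, at 3-fold or more below the median with an adjusted p under 0.05, where 10.9% of all genes were. Most list genes had been paired through the study's calls in this tissue, so the count says nothing of the pathway. The 8 were Tle2, Ncor1, Spen, Kat2b, Mfng, Nrarp, Dtx3 and Mib2. Tle2 had the lowest value, at -3.52 ± 0.24 (SE), and Nrarp was at -3.03 ± 0.35 (SE). Of the 10 genes paired through the NT and FL calls alone, 0 were called 3-fold low or high by limma, and none by edgeR or DESeq2 either. At an adjusted p under 0.05 with no fold, 6 of these 10 were above the median and 1 was below, where 32.0% and 34.2% of all genes were. Calls of the FL against the NT chose these 10, and the sort takes in limb mesoderm, so nothing is read from this count. Hes1, at 0.89, lay beside Id1 at 0.96, Cdkn1a at 0.94, Atoh8 at 0.88 and Psenen at 0.86, which differed from it by less than their errors of 0.17 to 0.21. Id3 was at 1.10 and Hes6 at 0.47.

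The 5 genes with a symbol whose levels over the 12 NT and FL libraries were most like those of Hes1 were Cox14, Ifi30, Ctnnbip1, Sumo3 and Mvb12a. Their Pearson r with Hes1 on the log2 scale was 0.974, 0.969, 0.967, 0.966 and 0.964, and they were the first 5 among the 10767 genes whose mean reached 100 normalized reads. In all, 180 genes had an r over 0.9. The libraries share their tables, depth and order of tissues, so these values are a description. Cox14 encodes an assembly factor of cytochrome c oxidase, and its RPFs were at 257, 266 and 286 in the NT and at 869, 1023 and 418 in the FL. Its mRNA was at 421, 300 and 245 in the NT and at 302, 283 and 261 in the FL. Ctnnbip1 encodes an inhibitor of β-catenin, with RPFs of 194, 300 and 288 in the NT and 1174, 1183 and 523 in the FL. All 5 genes shared with Hes1 the lowest FL footprints in replicate 3 and the highest NT mRNA in replicate 1. Their TE differences were between 1.28 and 1.98, below that of Hes1. The CDS had 171 nt in Cox14, 243 nt in Ctnnbip1, 339 nt in Sumo3 and 813 nt in Mvb12a, all shorter than that of Hes1.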

How the data were processed

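Per the labels and the study's methods, the authors trimmed reads with cutadapt, aligned them with Bowtie2 to mm10, counted reads on the CDS of canonical UCSC transcripts without the first 15 and last 5 codons, and deposited counts divided by DESeq size factors, a normalized signal, in 2 tables that were scaled separately. Whole reads were recovered from these deposited values in 100.0% of cases in each of the 18 libraries. Symbols came from the study's tables and loci and sequences from GENCODE vM21 and GRCm38. TE was fitted on log2(normalized reads + 1) by limma 3.58.1 under R 4.3.3, with Benjamini-Hochberg adjustment over all genes. The mesoderm fit had replicate number as a block, was centred on the median gene and called genes at an adjusted p under 0.05 and 3-fold. The NT and FL fit took the interaction of library type and tissue, at an adjusted p under 0.2 and 2-fold. Same-numbered mesoderm libraries deviated together (r of 0.74, 0.58 and 0.57 across genes), and both came from 1 sorted sample. edgeR 4.0.16 and DESeq2 1.42.0 on recovered reads, other pseudocounts, scaling, a filter and left-out libraries were alternatives. The limma fits were also run on simulated counts, which had the same dispersion for every gene and no library that stood apart. That run therefore does not show how the fits behave on these libraries. Named genes were Hes1, all list genes with a symbol and the 5 most like Hes1 by Pearson r among genes whose mean reached 100. The members and lists were chosen with earlier results of these data known. 1 gene is not reported here and was left out of the lists.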

Additional observations from a re-analysis of the deposited data

How the results depend on the processing

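Hes1 kept its direction in every comparison under all alternatives run. Its mesoderm TE of 0.89 stayed past the threshold in 9 of 10 alternatives. The exception was the fit with no replicate block, at 0.89 with an adjusted p of 0.066 by limma. Leaving out each replicate gave 0.64 to 1.14. Its TE difference between the FL and the NT was 2.00 to 3.16 when replicates or single libraries were left out, its RPF difference 1.75 to 2.73 and its mRNA difference -0.43 to -0.06. FL Ribo-Seq replicate 3 alone, an alternative chosen after seeing the data, gave 1.63 in TE and 1.36 in RPFs. A replicate block leaves the TE difference at 2.40 by construction, since every group held the same replicate numbers. The counts of genes over the NT and FL depended on the processing: 14 higher in the FL and 31 higher in the NT became 1 and 5 with the replicate block, 568 and 284 with DESeq2, and 1 and 2 with FL Ribo-Seq replicate 3 alone. Leaving out replicates or single libraries gave 0 to 2329 higher in the FL and 0 to 2504 higher in the NT. The large counts came without replicate 3, without FL Ribo-Seq replicate 3 (1853 and 2219) and without NT Ribo-Seq replicate 3 (1245 and 1688), and every other left-out library gave at most 3 and 6. Same-numbered NT and FL Ribo-Seq libraries deviated against each other (r of -0.29, -0.50 and -0.58), so the numbers were not taken as pairs. In the mesoderm the 1317 low genes ranged from 1160 to 1428 over left-out replicates and the 141 high genes from 72 without replicate 2 to 271 without replicate 1. The causes of these changes were not tested. Depth did not limit Hes1, which had at least 1057 reads in every library; the spread between replicates did.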
